A study of Mus musculus with 9 samples.

Results

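Microtubule motor genes were measured in maturing mouse megakaryocytes, the large polyploid marrow cells that release platelets. The members were the probe sets with exactly 1 gene symbol that begins with Kif followed by a digit or c, with Klc followed by a digit, or with Dync, Dynl or Dctn. This name rule gave 92 probe sets of 45 genes, among 22690 probe sets and 12393 singly named genes on the array, and 1 further kinesin gene was not analysed here. The cells came from mouse bone marrow or fetal liver preparations grown with thrombopoietin, were sorted for high CD41 and by forward scatter, and were profiled on Affymetrix MOE430A arrays. The array titles do not name the tissue of any stage, and its part in the differences between stages was not tested. MKP, MK3 and MK4, the earlier stages, had 2 arrays each, and MK6, the most mature, had 3. MK3, MK4 and MK6 carry the culture day in their names, whereas for MKP no day is stated, and no genotype, strain or age is given for any stage. All groups shared the cytokine and the CD41 sort. Whether replicate arrays were independent cultures is not stated, and p-values therefore describe array-to-array spread that may be technical. MK6 replicate 1 is the array whose title carries no replicate number, and MK6 replicates 2 and 3 are titled replicate1 and replicate2.

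Kinesins walk along microtubules, mostly toward the plus end, and the family divides into motors that build the mitotic spindle and motors that carry organelles, vesicles and RNA. Cytoplasmic dynein walks toward the minus end, and dynactin, its multi-subunit partner, lets it run far and bind cargo. In megakaryocytes dynein-driven sliding of microtubules is known to elongate proplatelets, kinesins are known to move granules and organelles along them, and spindle motors serve the endomitotic cycles by which these cells become polyploid.

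The data behind the members were of uneven quality. The trimmed means of the deposited arrays ran from 102 to 221, and each array was scaled to a common value. The 3' to 5' beta-actin control ratio was 1.49, 1.33 and 3.21 on MK6 replicates 1, 2 and 3, against 0.957 to 1.09 on the other 6 arrays. Over the 9397 genes tested, the median SD within a stage was 0.38 log2 units in MK6 and 0.16 in MKP. Megakaryocyte markers (9 of 13 listed were on the array and matched) had summed scaled signals of 15947 to 19320 on the MK6 arrays and 9184 to 9503 on the MKP arrays. Pf4 and Itga2b made up most of these sums, and of the 9 genes 6 lay higher in MK6 and 3 lower (Itgb3 at -2.01, Ppbp at -0.66 and Clec1b at -0.55), with Vwf and Itga2b called higher in limma. Neutrophil and granulocyte markers, 7 of 13 of which were called lower in MK6 in limma, had sums of 15218, 30245 and 7150 on MK6 replicates 1, 2 and 3, against 49896 and 40862 on the MKP arrays. Sums for monocyte and macrophage markers (9 of 9 listed) were 11680 to 25552 in MK6 and 10271 and 12752 in MKP, with 2 genes called higher and 2 called lower in limma. They were for hepatocyte markers (6 of 7) 101 to 306 in MK6 and 576 and 600.2 in MKP. Lymphocyte markers (5 of 6 on the array, 2 of them below the filter throughout) summed to 897 to 2073 in MK6 and 242 and 283 in MKP, of which Il7r alone made up 709 to 1603 in MK6 and 81.5 and 87.2 in MKP. Erythroid markers (6 of 9) summed to 474 to 637 in MK6 and 399 and 494 in MKP, and mast cell and basophil markers (6 of 7) to 484 to 594 in MK6 and 635 and 786 in MKP. The part of these cells in the results was not tested. Bulk arrays cannot tell fewer cells of a type from less RNA per cell.

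Between MK6 and MKP, 1 of the 39 tested motor genes passed the threshold: Kif11, the kinesin that slides antiparallel spindle microtubules apart, was lower in MK6. Calls were made in limma, fitted over all 9397 tested genes and all 9 arrays on log2(scaled signal + 15.2), with the threshold at 0.05 after Benjamini-Hochberg adjustment. Of the members 0 were called higher (2.76% of all genes were) and 1 lower (2.94% of all genes were), with 5.69% of all genes called in either direction. At an unadjusted p below 0.05 there were 10 of 39 members, against 23.8% of all genes. The groups of arrays did not overlap for 14 members that were higher in MK6 (24.5% of all genes) and for 5 that were lower (18.8% of all genes). The count at an unadjusted p is near the share of all genes. Without overlap, 14 of 39 is a larger share than that of all genes, and 5 of 39 a smaller one. Whether the motor genes as a group differ from other genes was not tested. The median MK6 minus MKP difference was 0.34 over the 39 tested members, which ran from -1.30 to 1.30, and 0.13 over all tested genes. That last value is 0.0052 when the arrays are scaled to a common median, where the members' median is 0.23. Leaving out MKP replicate 1 gave a members' median of 0.19, and leaving out MK6 replicate 1 gave 0.16.

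**Figure D1:**
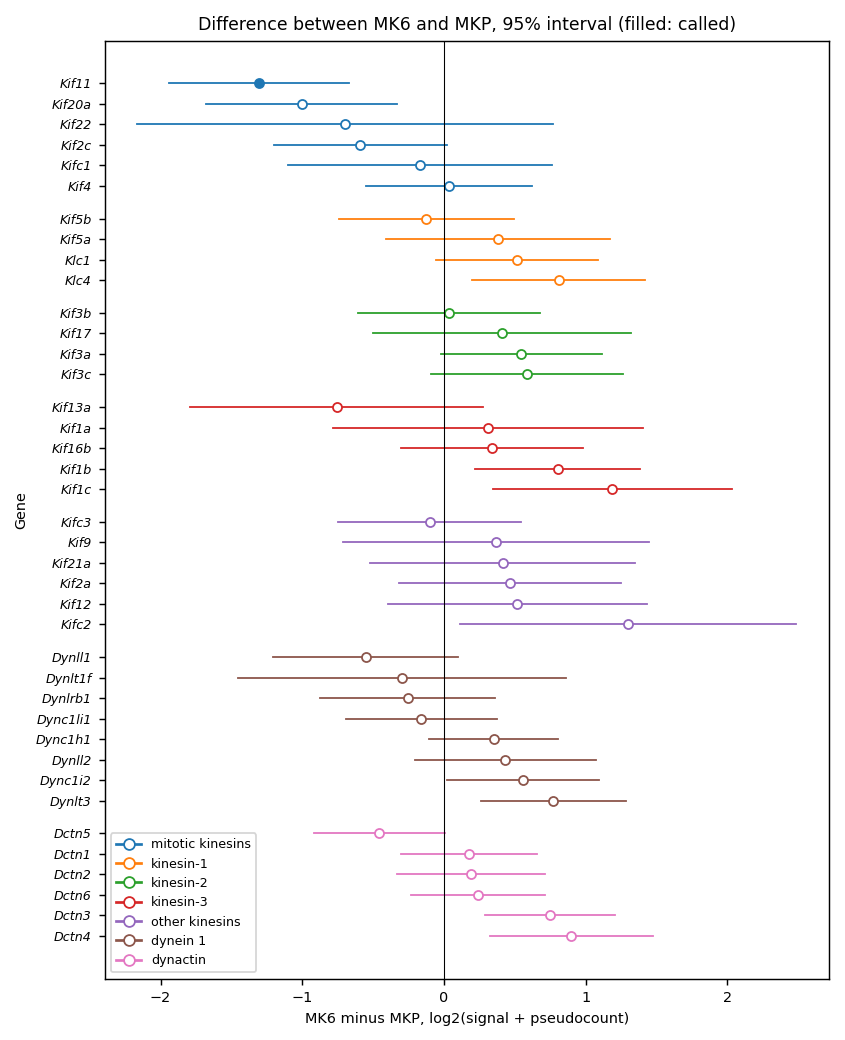
MK6 minus MKP difference of each of the 39 tested genes on the log2(signal + pseudocount) scale (x axis), with its 95% interval from limma, grouped by role (y axis). The filled point is the called gene, Kif11 at -1.30, and the open points did not pass.

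Promoters of 4 mitotic kinesins are shown because this role group held the called gene and because 6 of its 7 promoters in the table share a short motif. The 7 are those of Kif11, Kif18a, Kif22, Kif2c, Kif4, Kifc1 and Kifc5b, and Kif20a had no promoter there. Kifc5b is near-identical to Kifc1, so their matches are not independent. The 4 shown had the largest absolute MK6 minus MKP differences among the tested genes of these 7. The sequences run from 250 bases before to 50 bases after the start site and are from RefSeq (GRCm38.p6), which matched 36 of the 45 members with 43 promoters. Capitals mark 3 motifs on either strand. TTTGAA and its variant TTTAAA are forms of the cell cycle homology region found in many genes expressed in mitosis, and CCAAT is a box often found upstream of it. Kif11 is at chr19:37376132-37376431 on the plus strand, Kif22 at chr7:127042371-127042670, Kif2c at chr4:117178723-117179022 and Kifc1 at chr17:33890584-33890883, these last 3 on the minus strand. The Kif2c window, the only one the table gives for this gene, lies inside the annotated gene and not at its outermost 5′ end.
Kif11: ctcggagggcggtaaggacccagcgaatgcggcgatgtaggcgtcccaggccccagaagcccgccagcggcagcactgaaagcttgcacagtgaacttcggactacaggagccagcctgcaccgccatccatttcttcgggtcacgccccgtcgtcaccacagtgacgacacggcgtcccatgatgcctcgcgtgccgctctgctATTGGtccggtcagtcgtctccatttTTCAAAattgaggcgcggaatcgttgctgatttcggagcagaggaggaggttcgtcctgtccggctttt
Kif22: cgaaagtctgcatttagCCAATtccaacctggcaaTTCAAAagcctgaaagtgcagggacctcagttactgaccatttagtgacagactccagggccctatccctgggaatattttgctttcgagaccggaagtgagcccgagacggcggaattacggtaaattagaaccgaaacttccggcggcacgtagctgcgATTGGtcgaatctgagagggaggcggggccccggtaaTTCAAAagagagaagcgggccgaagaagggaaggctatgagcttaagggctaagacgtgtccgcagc
Kif2c: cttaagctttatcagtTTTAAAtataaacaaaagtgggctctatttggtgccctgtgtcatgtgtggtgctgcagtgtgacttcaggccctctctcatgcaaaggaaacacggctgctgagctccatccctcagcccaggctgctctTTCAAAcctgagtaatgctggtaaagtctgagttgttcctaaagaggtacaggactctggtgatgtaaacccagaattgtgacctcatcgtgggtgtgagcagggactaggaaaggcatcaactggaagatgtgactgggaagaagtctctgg
Kifc1: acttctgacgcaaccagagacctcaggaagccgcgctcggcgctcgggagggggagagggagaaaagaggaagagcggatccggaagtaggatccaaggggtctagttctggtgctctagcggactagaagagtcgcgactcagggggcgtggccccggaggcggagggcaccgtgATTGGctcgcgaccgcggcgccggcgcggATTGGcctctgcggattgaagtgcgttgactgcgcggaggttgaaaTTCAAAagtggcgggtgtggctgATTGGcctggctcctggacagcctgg

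TTTGAA, which reads TTCAAA on the other strand, was present in 6 of the 7 mitotic kinesin promoters, or 85.7%, against 17.9% of all 32851 promoters in the table. TTTAAA, which reads the same on both strands, was present in 1 of the 7 and in 13.2% of all promoters. CCAAT, or ATTGG on the other strand, was present in 5 of the 7 and in 37.4% of all, and 5 of the 7 held CCAAT together with TTTGAA or TTTAAA, against 10.7% of all. No 2 of the 3 motifs overlapped in the sequences shown. In Kif11 the TTTGAA match began 19 bases and the CCAAT match 45 bases before the start site, and in Kif22 the nearer pair began 17 and 54 bases before it. Kif2c had no CCAAT match in this window. TTTGAA and CCAAT were also in the promoters of Kifc1 and Kif4. The MK6 and MKP arrays of Kifc1, Kif4 and, on the probe set used, Kif22 overlapped in signal. Among the 36 promoters of the other members, 2 held TTTGAA, those being 1 of the 2 of Dctn1 and 1 of the 2 of Kif1a. These other members include Kif2a, which also acts at spindle poles and whose promoters held none of the 3 motifs. A match describes letters in this window and is not evidence of binding.

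Mitotic kinesins lay lower in MK6 than in MKP for 5 of 6 tested genes. Kif2a, which also acts at spindle poles, was grouped with the other kinesins and lay at 0.47. Of the 6, Kif11 alone was called. Its scaled signal was 66.2, 143 and 79.4 on MK6 replicates 1, 2 and 3, against 247 and 250.2 on the MKP arrays. The groups did not overlap, and MK6 replicate 2 lay nearest to the MKP arrays. The MK3 arrays read 164 and 164 and the MK4 arrays 184 and 231, between those groups. On the log2 scale the mean was 6.74 ± 0.50 in MK6 (SD, n = 3) and 8.04 ± 0.012 in MKP (SD, n = 2). In limma the difference was -1.30 ± 0.29 (SE, adjusted p = 0.0286), or 2.47-fold lower in MK6, with a 95% interval of -1.94 to -0.67. All 3 probe sets of Kif11 had the same sign. The other probe sets gave -1.89 (limma adjusted p = 0.0097 over probe sets) and -1.40 (limma adjusted p = 0.0531 over probe sets).

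The Kif11 call rested on few arrays. It ended without MKP replicate 1 (-1.31) and without MKP replicate 2 (-1.29), each fit leaving 1 MKP array. It also ended without MK6 replicate 3 (-1.22, limma adjusted p = 0.0877), where 150 of all genes were called, against 535 with all arrays. In each of these fits the Kif11 difference stayed close to its value of -1.30 with all arrays. Kif11 lay at -0.74 with MK6 replicate 2 as the only MK6 array (limma adjusted p = 0.24). The spread in that fit comes from the other stages alone, and the lone array is assumed to vary as they do, although MK6 had the largest SD within a stage. Neutrophil markers were lower on MK6 replicates 1 and 3 than on replicate 2, as Kif11 was. The part of these cells in the Kif11 result was not tested. The highest beta-actin ratio was that of MK6 replicate 3, and with this ratio as a term in the fit the Kif11 difference was -1.03 (limma adjusted p = 0.47), a fit in which 0 of all genes were called in MK6 against MKP.

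Kif20a, a motor of the central spindle and cytokinesis, read 37.6, 77.9 and 39.9 in MK6 and 115 and 114 in MKP. All MK6 arrays lay below both MKP arrays, and the difference was -1.003 ± 0.31 (limma adjusted p = 0.0822). The MK3 arrays at 107 and 97.3 lay between the end stages, and the MK4 arrays at 77.2 and 60.9 lay inside the MK6 range. Kif2c, a kinesin that takes microtubule ends apart at centromeres, read 182, 102 and 134 in MK6 and 195 and 230.2 in MKP, a difference of -0.59 (limma adjusted p = 0.22). Its other probe sets gave -1.47, -1.02 and 0.37, so they disagreed in sign, and none passed. The groups of arrays did not overlap on the probe set used, and MK6 replicate 1 was close to the lower MKP array.

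Kif22, a motor that binds chromosome arms, had 1 array far from the rest on the probe set used. Its signal was 65.4, 571 and 464 in MK6 and 346 and 567 in MKP. MK6 replicate 1 was low and the other MK6 arrays lay inside or near the MKP range, with a difference of -0.70 ± 0.67 (limma adjusted p = 0.54). On its other probe sets every MK6 array was below both MKP arrays, and neither passed: 1 read 4.31, 97.9 and 65.0 in MK6 and 135 and 110.0 in MKP, a difference of -1.29, and the other 14.9, 58.8 and 34.99 in MK6 and 88.3 and 67.5 in MKP, a difference of -0.94. Kifc1, a minus-end motor that gathers microtubules at spindle poles, read 34.7, 137 and 111 in MK6 and 93.5 and 97.4 in MKP, with MK6 replicate 1 below and the other MK6 arrays above both MKP arrays. Its probe set may also detect the near-identical Kifc5b, so its signal is uncertain. Kif4, a chromosome-bound motor that also acts at the spindle midzone, read 179, 173 and 121 in MK6 and 136 and 167 in MKP. Those groups overlapped, and the difference was 0.036 with a 95% interval of -0.55 to 0.62. The median difference of the 6 tested mitotic kinesins was -0.64. It was -0.42 without MK6 replicate 1, -0.42 without MKP replicate 2 and -0.15 with MK6 replicate 2 as the only MK6 array. Their mean log2 signal was 6.55, 7.46 and 7.09 on MK6 replicates 1, 2 and 3, against 7.55 and 7.75 on the MKP arrays.

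**Figure D2:**
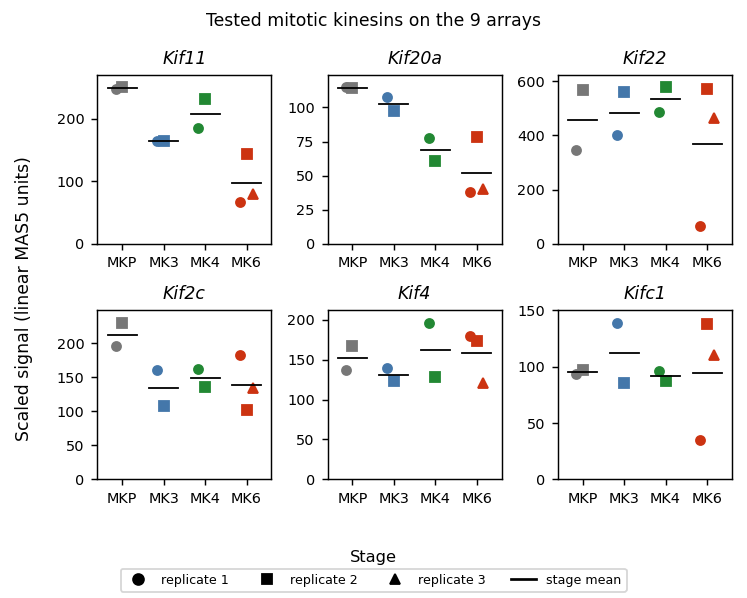
Scaled signal (y axis, linear MAS5 units from 0) of the 6 tested mitotic kinesins at each stage (x axis), with a symbol per replicate and a line at the stage mean. Kif11 lies at 66.2 to 143 in MK6 and at 247 and 250.2 in MKP, and MK6 replicate 1 is far below the other MK6 arrays for Kif22 and Kifc1.

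Regulators that work with these motors on the spindle, such as kinases, cyclins and midzone proteins, were lower in MK6 for all 17 tested genes of a list of 20, against 3838 of all 9397 genes. None passed in limma, and 8 of the 17 had an unadjusted p below 0.05, against 23.8% of all genes. The groups of arrays did not overlap for 10 of the 17, all lower in MK6, against 18.8% of all genes. The median was -1.02, beside 0.13 over all tested genes. The largest differences were those of Birc5 (-1.997 ± 0.86), Bub1b (-1.88 ± 0.76), Ccna2 (-1.85 ± 0.50) and Ect2 (-1.68 ± 0.52). Their limma adjusted p ran from 0.0547 to 0.19. Birc5 read 10.4, 384 and 247 on MK6 replicates 1, 2 and 3 and 548 and 530 in MKP. Bub1b read 15.8, 344 and 209 in MK6 and 493 and 473 in MKP. For both, MK6 replicate 1 was far below the other MK6 arrays, which also lay below both MKP arrays. Ccna2 read 87.9, 448 and 253 in MK6 and 917 and 745 in MKP. Ect2 read 9.68, 42.5 and 3.55 in MK6, all below the filter, and 53.9 and 118 in MKP. Birc5 is a chromosomal passenger, Bub1b a spindle checkpoint kinase, Ccna2 a cyclin of S phase and mitotic entry, and Ect2 a protein needed for cytokinesis. Against MKP, 16 of the 17 were already lower in MK3 (5091 of all 9397 genes were), 11 without overlap (26.5% of all genes). From MK4 to MK6, 16 were lower (3801 of all genes were), 0 without overlap (9.82% of all genes). The summed signal of the 18 listed genes on the array, tested or not, was 1501, 6331 and 4337 on MK6 replicates 1, 2 and 3, against 7875 and 7290 on the MKP arrays. The MK3 arrays summed to 5948 and 6097 and the MK4 arrays to 6176 and 4917, each below MK6 replicate 2. MK6 replicate 1 was thus the lowest for the spindle list as for the mitotic kinesins.

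Kinesin-1, the motor that carries many organelles along microtubules, was represented by 4 tested genes, and none passed. Kif5b, the heavy chain found in most cells, read 564, 563 and 444 in MK6 and 502 and 644 in MKP. These groups overlapped, and the difference was -0.12 with a 95% interval of -0.74 to 0.49. On the remaining Kif5b probe sets the differences were 0.73, 0.45, -0.065 and 0.48, with no call. Klc4, a light chain that links the motor to cargo, read 414, 242 and 266 in MK6 and 152 and 177 in MKP. Each MK6 array was above both MKP arrays, and the difference was 0.81 ± 0.28 (limma adjusted p = 0.11), while its second probe set gave 0.017. Klc1, another light chain, lay at 0.51 (limma adjusted p = 0.25), with MK6 arrays at 170, 183 and 241 and MKP arrays at 160 and 109, and its other probe sets at -0.33 and 0.68. Kif5a, a heavy chain best known from neurons, was dim, at 44.1 to 109 in MK6 and 42.3 and 56.8 in MKP.

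Kinesin-2 and kinesin-3 genes gave 0 calls among 9 tested. Kif3a and Kif3b form the heterodimer of kinesin-2, known for transport in cilia and of vesicles. Kif3a read 146, 106 and 125 in MK6 and 77.1 and 84.4 in MKP, without overlap, a difference of 0.55 (limma adjusted p = 0.22), while its second probe set gave 0.027 with overlapping groups. Kif3b lay at 0.035, and its other probe sets at 0.62, -0.29 and -0.70. Kif3c, an alternative partner of Kif3a, read 342, 156 and 169 in MK6 and 128 and 141 in MKP, a difference of 0.59 (limma adjusted p = 0.27) with MK6 replicate 1 far above the other arrays. Kif17, known from dendrites and cilia, lay at 0.41, and its groups overlapped.

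Among kinesin-3 genes, which carry vesicles and mitochondria, Kif1c had the largest difference, 1.19 ± 0.38 (limma adjusted p = 0.0978). Kif1c, a motor for long-range vesicle and RNA transport, read 154, 67.5 and 126 in MK6 and 36.1 and 43.9 in MKP, and both MKP values are below the filter of 46.7. Every MK6 array exceeded the MKP arrays, but MK3 replicate 1 at 124 was close to MK6 replicate 3, and MK3 replicate 2 was at 54.8. The other kept probe set of Kif1c gave 0.65 with overlapping groups, at 99.0, 37.2 and 72.7 in MK6 and 23.3 and 53.8 in MKP. Kif1b, known for moving mitochondria and synaptic vesicle precursors, read 298, 186 and 242 in MK6 and 129 and 131 in MKP. This difference was 0.80 ± 0.27 (limma adjusted p = 0.10) without overlap, and its 6 kept probe sets ran from -0.022 to 0.80. Kif13a, a motor for endosomal and melanosome cargo, read 61.6, 38.2 and 8.6 in MK6 and 74.4 and 52.3 in MKP, a difference of -0.76 (limma adjusted p = 0.34). Kif16b, which moves early endosomes, and Kif1a, best known from neurons, lay at 0.34 and 0.31 with overlapping groups.

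**Figure D3:**
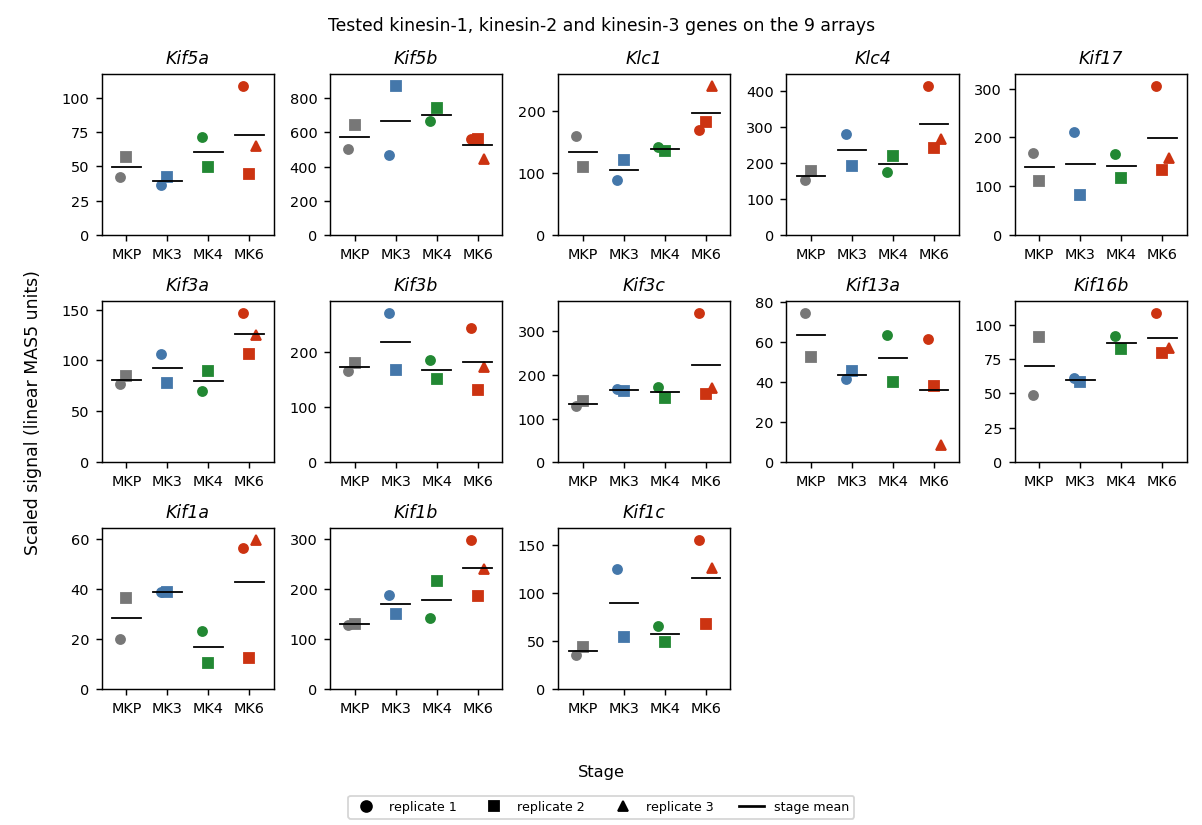
Scaled signal (y axis, linear MAS5 units from 0) of the 13 tested kinesin-1, kinesin-2 and kinesin-3 genes at each stage (x axis), with a symbol per replicate and a line at the stage mean. Klc1, Klc4, Kif3a, Kif3c, Kif1b and Kif1c have every MK6 array above both MKP arrays, and none passed the threshold.

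The remaining 6 tested kinesins gave 0 calls as well. Kifc2, a kinesin of the minus-end class known from neurons, had the largest positive difference of all members, 1.30 ± 0.54 (limma adjusted p = 0.17). Its signals were 48.8, 39.9 and 82.8 in MK6 and 12.5 and 14.1 in MKP. Only 3 of its 9 values were above the filter, so the size depends on the pseudocount. Kif2a, which depolymerises microtubules at spindle poles and in neurons, read 319, 617 and 247 in MK6 and 224 and 303 in MKP. That range overlapped MKP, and its 5 probe sets ran from -0.063 to 0.85. Kif12, Kif21a and Kif9 lay at 0.52, 0.42 and 0.37, each with its highest value on MK6 replicate 1, and Kifc3 lay at -0.10, all with overlapping groups.

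Of the 45 members, 6 did not pass the filter. Dync1i1, the dynein intermediate chain best known from brain, reached 34.4 at most, and Klc3, known from testis, 30.8. Kif5c, a neuronal kinesin-1 heavy chain, reached 14.9 on its brighter probe set, Kifc5b 25.2 and Kif21b 4.07. Kif18a, which moves chromosomes to the spindle equator, was above the filter on 1 array, at 73.6. These genes entered no comparison.

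Cytoplasmic dynein had 8 tested subunits, 0 of which passed: 4 lay higher and 4 lower in MK6 than in MKP. Dync1h1, the heavy chain that carries the motor, read 567, 637 and 567 in MK6 and 489 and 430.0 in MKP. All 3 MK6 values were above both MKP values, by a difference of 0.35 with a 95% interval of -0.10 to 0.81, and the MK3 arrays were already at 589 and 595. Dync1i2, the intermediate chain that joins dynein to dynactin, read 268, 340.1 and 294 in MK6 and 171 and 229 in MKP, a difference of 0.56 (limma adjusted p = 0.19). Dync1li1, a light intermediate chain that binds cargo adaptors, overlapped between the stages at -0.16, with a 95% interval of -0.69 to 0.37.

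Dynlt3, a light chain of the Tctex family, was the dynein subunit with the largest difference. It read 796, 847 and 908 in MK6 and 447 and 539.7 in MKP, without overlap, and the MK3 arrays lay between them at 689 and 659. Its MK4 arrays were apart, at 555, just above MKP, and at 827, inside the MK6 range. In limma the difference was 0.77 ± 0.23 (adjusted p = 0.0791) on the probe set used. A second probe set was called, at 1.22 ± 0.26 (limma adjusted p = 0.0225 over probe sets, of which 6.91% were called), and its remaining probe set gave -0.12. The 2 LC8-type light chains lay on opposite sides of zero. Dynll1 read 753, 1469 and 1343 in MK6 and 1793 and 1578 in MKP, a difference of -0.55 (limma adjusted p = 0.27) with -0.51 and -0.61 on its other probe sets. Dynll2 read 542, 549.9 and 489 in MK6 and 349 and 426 in MKP, a difference of 0.43 (limma adjusted p = 0.37) with 0.47 on its other probe set. Neither pair of groups overlapped, and neither passed. Dynlrb1, a roadblock light chain, lay at -0.26 with overlapping groups. The Dynlt1f probe set reached 76.9 at most, belongs to a cluster of near-identical genes and is uncertain.

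Dynactin had all 6 of its genes tested, with 0 called. Dctn3, a subunit of the shoulder that joins the arm to the filament, read 610, 593 and 616 in MK6 and 314 and 399 in MKP. Its MK6 arrays were close together and above every other array, the MK3 and MK4 arrays being at 415 to 483, with a difference of 0.75 ± 0.21 (limma adjusted p = 0.0596). Dctn4, a subunit of the pointed-end complex of the dynactin filament, read 435, 287 and 450 in MK6 and 185 and 213 in MKP, a difference of 0.90 ± 0.26 (limma adjusted p = 0.07). Its other 3 kept probe sets gave -0.0096, -0.042 and -0.23. Dctn5, of the same pointed-end complex, was the only dynactin gene with a negative difference, at 318, 296 and 329 in MK6 and 454 and 419 in MKP. Every MK6 array was lower, the difference being -0.45 (limma adjusted p = 0.22).

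Dctn1, the large subunit that binds microtubules and the dynein intermediate chain, lay at 0.17 with overlapping groups (MK6 at 577 to 793, MKP at 606 and 618), and its second probe set at -0.65. Dctn2, the dynamitin subunit, and Dctn6, a pointed-end subunit, lay at 0.19 and 0.24. The 95% intervals of these 3 were -0.31 to 0.65, -0.33 to 0.72 and -0.23 to 0.71. Differences inside those bounds could not be resolved with 3 and 2 arrays.

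**Figure D4:**
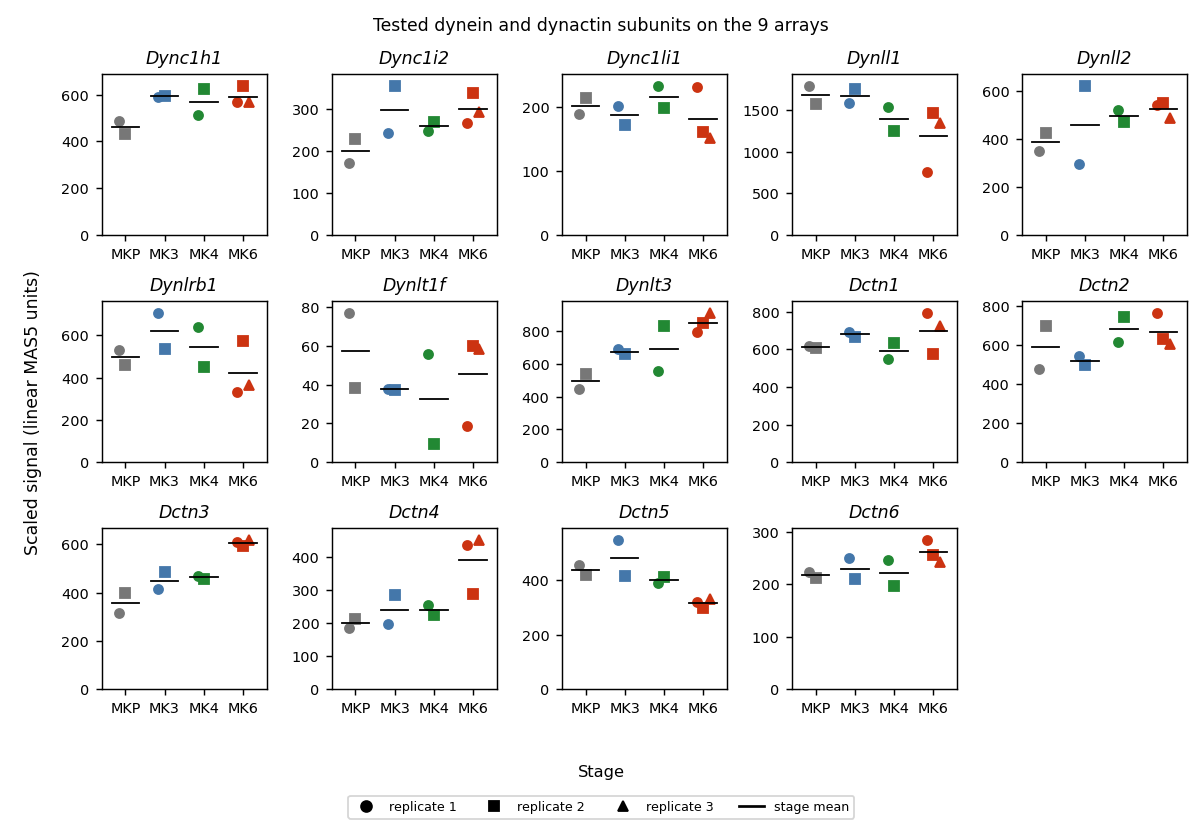
Scaled signal (y axis, linear MAS5 units from 0) of the 8 tested dynein and 6 tested dynactin genes at each stage (x axis), with a symbol per replicate and a line at the stage mean. Dctn3, Dctn4, Dctn6, Dync1h1, Dync1i2, Dynll2 and Dynlt3 have every MK6 array above both MKP arrays, Dctn5 and Dynll1 every MK6 array below, and none of the 14 passed the threshold.

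Other listed partners of the motors, some of which also act at the spindle, gave 0 calls in any comparison in limma. Their counts at an unadjusted p below 0.05 stand beside 23.8% of all genes. Of 21 listed dynein regulators and adaptors 12 were tested, with a median of -0.15 for MK6 minus MKP and 1 at an unadjusted p below 0.05. The largest differences were Numa1 (-0.66), which anchors dynein at spindle poles, Spdl1 (-0.52), a dynein adaptor at kinetochores, and the capping subunits Capza2 (-0.51) and Capza1 (-0.43). Spdl1 read 13.4, 104 and 69.6 in MK6 and 66.7 and 93.7 in MKP, so its groups overlapped. Of 19 listed kinesin adaptors 10 were tested, with a median of -0.0059 and 2 at an unadjusted p below 0.05. Rhot2, which tethers motors to mitochondria, lay at -0.72, Fez2 and Fez1, adaptors of kinesin-1, at 0.70 and 0.57, and Mapk8ip2, a scaffold for kinesin-1, at 0.67. Mapk8ip2 read 140, 20.2 and 54.5 in MK6 and 70.3 and 9.27 in MKP, so its groups overlapped. Among 21 listed microtubule plus-end and lattice proteins 15 were tested, with a median of -0.044 and 2 at an unadjusted p below 0.05. Stmn1, which destabilises microtubules, lay at -1.42 and just missed the threshold (limma adjusted p = 0.0504). It read 529, 1423 and 1127 in MK6 and 2824.5 and 2336 in MKP. Camsap1, which protects minus ends, lay at 0.72, Clasp1 at -0.50 and Map4 at -0.46.

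No member was called in the single steps of maturation. In limma 0 of 39 members were higher (0.0532% of all genes were) and 0 lower (0% of all genes were) in MK3 than in MKP, and 0 had an unadjusted p below 0.05 (9.91% of all genes). Their arrays did not overlap for 12 members higher (19.4% of all genes) and 5 lower (26.5% of all genes) in MK3. Hepatocyte markers summed to 3921 and 3045 in MK3 and 600.2 and 576 in MKP, all 6 higher in MK3 without overlap, and monocyte and macrophage markers to 30483 and 15444 in MK3 and 12752 and 10271 in MKP. Their part in the steps that involve MK3 was not tested. From MK3 to MK4 the counts were 0 higher (0% of all genes) and 0 lower (0.0106% of all genes), with 0 at an unadjusted p below 0.05 (3.59% of all genes), and without overlap 7 were higher (17.5% of all genes) and 5 lower (12.7% of all genes) in MK4. From MK4 to MK6 they were 0 higher and 0 lower (0.0106% of all genes each way, 0.0213% in either), with 3 at an unadjusted p below 0.05 (10.5% of all genes), and without overlap 7 were higher (14.8% of all genes) and 3 lower (9.82% of all genes) in MK6. Those 3, named after their values were seen, were Kif11 at -1.05, Dctn4 at 0.65 and Kif3a at 0.57. Their other kept probe sets gave -1.14 and -0.54 for Kif11, -0.036, 0.091 and -0.80 for Dctn4, and 0.11 for Kif3a. These steps share arrays with each other and with the whole course. A moderated F test over the stages called 0 members (2.79% of all genes) in limma, with 6 at an unadjusted p below 0.05 (17.1% of all genes), and Kif11 had the smallest adjusted p, 0.0854.

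Probe sets of the same gene often differed. Of the 18 members with several kept probe sets, 8 had the same sign on all of them for MK6 minus MKP and 10 had both signs. The median distance between a gene's lowest and highest probe set was 0.81, beside a median SE of 0.29 for a difference. Kif11, Kif22, Dynll1, Dynll2, Kif17, Kif1c, Kif3a and Klc4 were the genes with 1 sign. MK6 replicate 1 held the highest value of 14 of the 39 tested members (35.9%, against 32.3% of all genes) and the lowest of 6 (15.4%, against 16.7% of all genes). MKP replicate 1 held the lowest value of 11 of the 39 (28.2%, against 10.7% of all genes). The median SD of the members within MK6 was 0.40, against 0.15 within MKP.

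**Figure D5:**
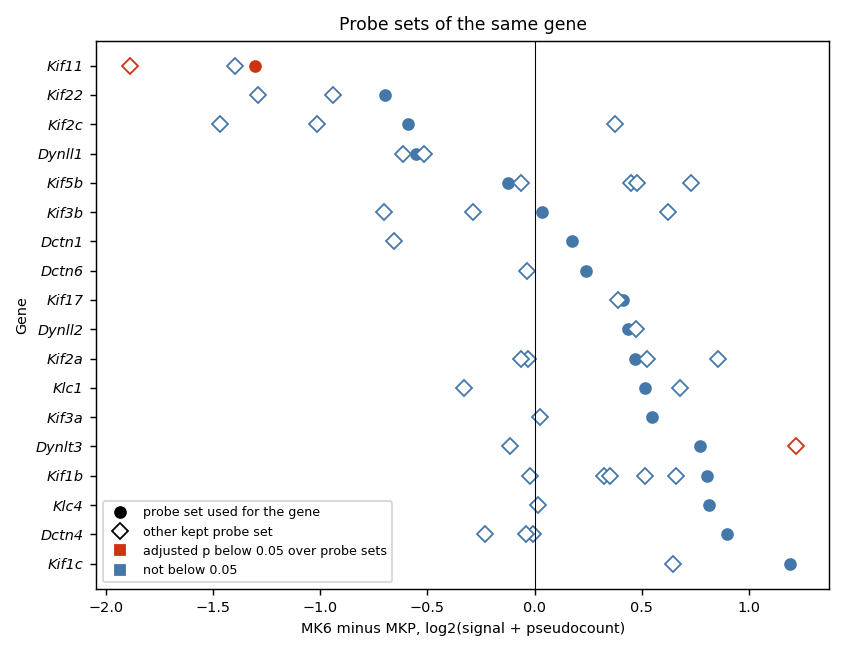
MK6 minus MKP difference on the log2(signal + pseudocount) scale (x axis) for every kept probe set of the 18 members that had several (y axis). Kif11 has all 3 probe sets at or below -1.30, while Dynlt3 runs from -0.12 to 1.22 and Dctn4 from -0.23 to 0.90.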

How the data were processed

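The deposited files hold 1 linear intensity per probe set and array, a MAS5 signal according to the submitters' processing notes. The MAS5 version and scaling are not stated, and detection calls were not used here. Every array was brought to a 2% trimmed mean of 161. The working scale was log2(signal + 15.2), with the 20th percentile as pseudocount, so folds understate changes of dim genes. Filtering kept probe sets over 46.7, the 40th percentile, on 2 or more arrays, and a gene was represented by its kept probe set of highest mean. Gene names are those of the platform annotation. One mean per stage was fitted with limma 3.58.1 in R 4.3.3 (moderated, with a trend on intensity and 5 residual degrees of freedom), after a test on simulated data. The members, role groups, gene lists and tests were chosen with earlier results of these data known. Values are given for called members, the 12 largest MK6 minus MKP differences, kinesin-1, kinesin-2, dynein and dynactin genes, and the 4 largest of each partner list, and otherwise mostly as ranges. Alternatives covered the pseudocount, filter, scaling, probe set choice, variance model, arrays left out and a control-ratio covariate. Protein sequences were not used here.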

Additional observations from a re-analysis of the deposited data

How the results depend on the processing

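The count of members lower in MK6 than in MKP was 1, and 0 with a common median, with the compared stages alone and with a term for the beta-actin control ratio (0 of all genes were called there). It was 0 to 2 with each array left out in turn, 5 with MK6 replicates 2 and 3 left out together, and 0 with MK6 replicates 1 and 3 left out. The planned setting was meant for the arrays with low trimmed means or high control ratios, which are replicates 1 and 3 in the numbering used here, but it named replicates 2 and 3. The setting without 1 and 3 was added after seeing the data, and each leaves 1 MK6 array, assumed to vary like the other stages. The count of members higher was 0, and 1 with every probe set on its own (Dynlt3), 0 to 3 with each array left out, and 5 with MK6 replicates 2 and 3 left out. Without MK6 replicate 2 the members called were Kif11 and Kif20a, lower, and Dctn4, Kif1b and Kif1c, higher. From MK4 to MK6 the lower count of 0 was 0 to 1 with an array left out and 2 with MK6 replicates 2 and 3 left out. The F test count of 0 was 1 with every probe set on its own, 0 to 1 with an array left out and 2 with MK6 replicates 2 and 3 left out. Among all genes 535 were called in MK6 against MKP, and 3 and 22 without MKP replicates 1 and 2. The cause of these changes was not tested. Kif11 kept its negative sign in all 22 alternatives, from -1.70 to -0.74, and missed the threshold in 7. No called value changed sign. No paired analysis was possible because the titles give no replicate numbers that the stages share.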
